A study of Mus musculus with 6 samples.

Results

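The genes described here are 39 mouse genes of phospholipase C signalling, taken by gene symbol from a list of enzymes and receptors in 7 classes. The classes are phospholipase C (10 genes), IP3 receptors (3), kinases of IP3 and other inositol phosphates (5), inositol recycling and phosphatidylinositol synthesis (6), phosphatidylinositol transfer proteins (5), diacylglycerol kinases (8) and protein kinase C (2). All 39 symbols were found among the 22692 gene symbols in each file, and 36 had at least 1 RPKM in 3 or more libraries and were tested. RPKM divides the reads of a gene by its length and by library depth, so levels of different genes can be set side by side. RNA came from whole eyes of C57BL/6J mice, an inbred strain with no further allele or agent in the labels. Per the labels, total RNA from 5 females, 4 weeks old, was pooled for each library, and there were 3 libraries from 1.5 h and 3 from 9.0 h after light onset. The comparison asked which of these transcripts differed between the 2 times in the light phase, and every change is given as 9.0 h minus 1.5 h.

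Phospholipase C enzymes cut the membrane lipid phosphatidylinositol bisphosphate into IP3, which is soluble, and diacylglycerol, which stays in the membrane. IP3 opens IP3 receptors on the endoplasmic reticulum and releases calcium, while diacylglycerol with calcium activates conventional protein kinase C. IP3 kinases and phosphatases, diacylglycerol kinases, lipid synthesis enzymes and transfer proteins end the signals and return both products to the membrane lipid. In the retina, Plcb4 is known from the melanopsin pathway of ganglion cells and Prkca from rod bipolar cells, and the fly homologues of phospholipase C and of the Pitpnm proteins serve phototransduction itself.

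The labelled tissue was checked against its markers. The lens crystallin Cryaa had 17273 to 32952 RPKM at 1.5 h and 40568 to 45156 at 9.0 h, with no overlap. Over the 6 libraries the corneal keratin Krt12 had 1338 to 2162 RPKM and the pigment epithelium enzyme Rpe65 45.1 to 86.2. A level in whole eye sums over all of these, and fewer cells of a type and less RNA per cell cannot be told apart. Depth, estimated from the step between low values, was 12680000 and 13000000 reads in 1.5 h replicates 2 and 3, and 24040000 to 31720000 in the other 4 libraries. In 1.5 h replicate 3, Ddx3y and 3 other Y-linked genes had 0.126 to 0.78 RPKM, against the label of female mice, where every other library lists these 4 genes at 0. Blood markers summed to 375 RPKM there, against 43.7 to 120 elsewhere. In 1.5 h replicate 1, markers of lens summed to 91500 RPKM, against 127000 to 159000 in the other 5 libraries, and markers of skeletal muscle to 721 RPKM, against 1210 to 1420. Markers of corneal stroma and sclera summed to 837 RPKM in that library, against 1440 to 1980. Of these 8 markers 7 had positive changes, with a median log2 change of 0.74, and none was called. Among them 5 were higher at 9.0 h with no overlap, against 9.78% of all tested genes. Of 15 lens markers 12 had positive changes, with a median of 0.39, and none was called. Among the lens markers 7 were higher at 9.0 h with no overlap. The part of either tissue in the levels of the listed genes was not tested. Small changes often turned sign when 1 library was left out, and ranges over the 6 such fits are given for the classes and for the genes most affected.

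No gene of the 36 tested was called, in either direction, by limma at a Benjamini-Hochberg adjusted p of 0.05 over all 13490 tested genes, where 30 genes (0.222%) were called, 20 higher (0.148%) and 10 lower (0.0741%). The smallest limma adjusted p of the 36 was 0.223, for Dgkh. At an unadjusted limma p of 0.05, 6 of 36 passed (16.7%), against 11.1% of all tested genes. With a minimum of 5 RPKM, 2 of 23 passed, against 1002 of 9072 tested genes. In 8 of the 36, all 3 libraries of one time lay above all 3 of the other (22.2%, against 18.2% of all tested genes). Plcg2 and Plcd1 were higher at 9.0 h (5.56%, against 9.78%), and Plce1, Itpr1, Dgkb, Dgkh, Dgki and Prkcb were lower (16.7%, against 8.41%). Plcg2, Dgkb, Dgkh and Dgki are in the count by unadjusted p and in the count by overlap. They would not have entered the test on their lower time alone, so neither share is free of the filter. The median log2 change was −0.075 over the 36 genes, with 22 below 0 (61.1%), and −0.003 over all tested genes, with 50.6% below 0. The median was −0.151 without 1.5 h replicate 2 and −0.149 without 9.0 h replicate 1, with 25 of 36 below 0 in each. Without 1.5 h replicate 1 it was −0.001, 18 of 36 were below 0, and 4 genes were called, Plcd1, Plcg2 and Itpkc higher and Dgkb lower. In that fit 9.23% of all tested genes were called, against 0.222% with all 6 libraries, so 4 of 36 was near that background.

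**Figure D1:**
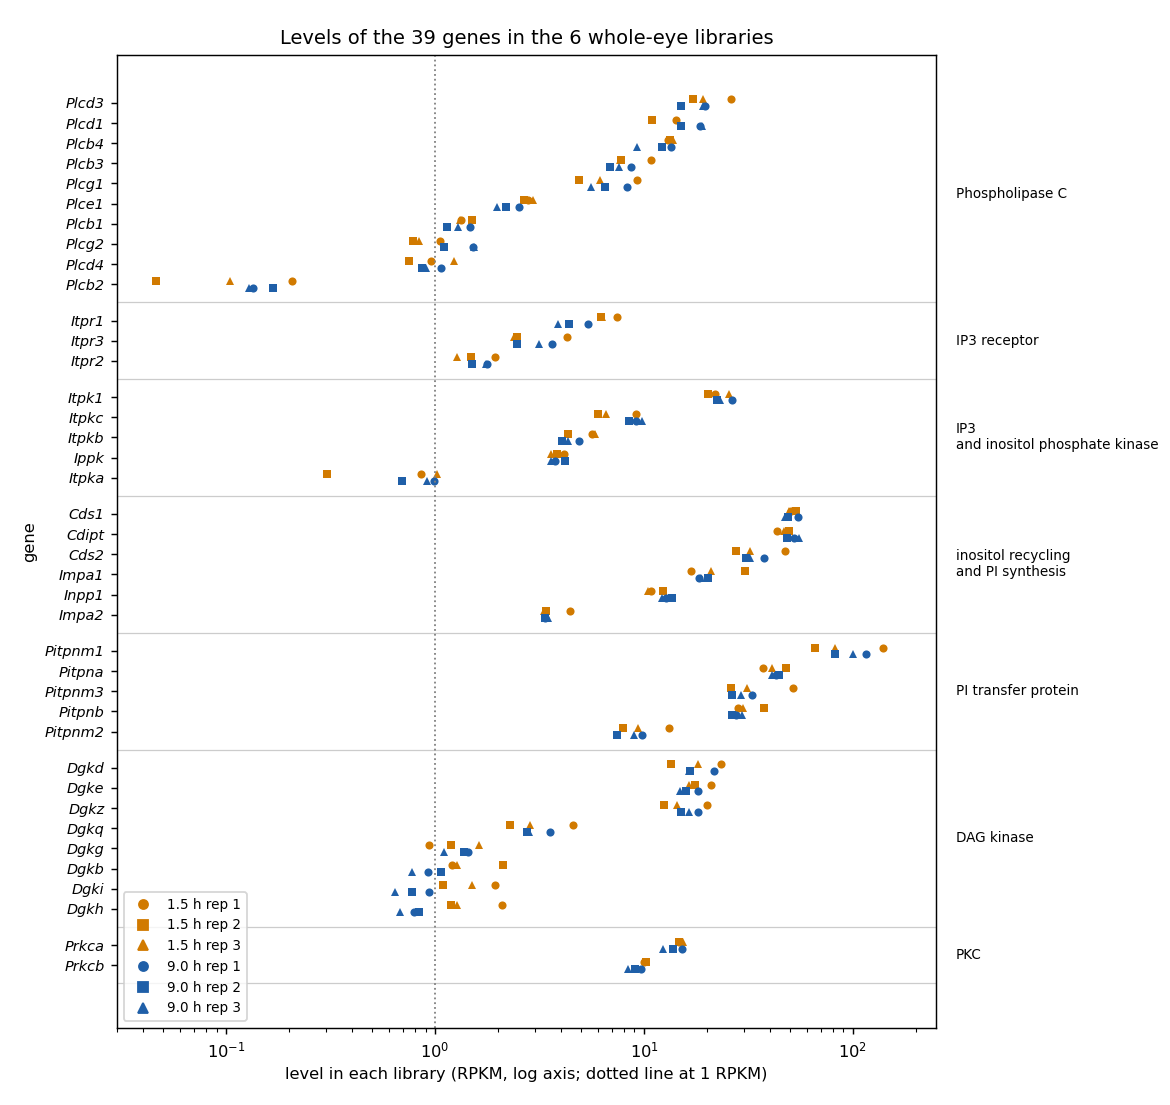
RPKM (log axis) of each of the 39 genes in each library, grouped by class and ordered by mean level; orange marks are the 3 libraries at 1.5 h and blue marks the 3 at 9.0 h, with circles, squares and triangles for replicates 1 to 3. Mean levels run from under 1 RPKM for Plcb2, Plcd4 and Itpka to 97.6 for Pitpnm1, and the colours overlap in most genes.

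**Figure D2:**
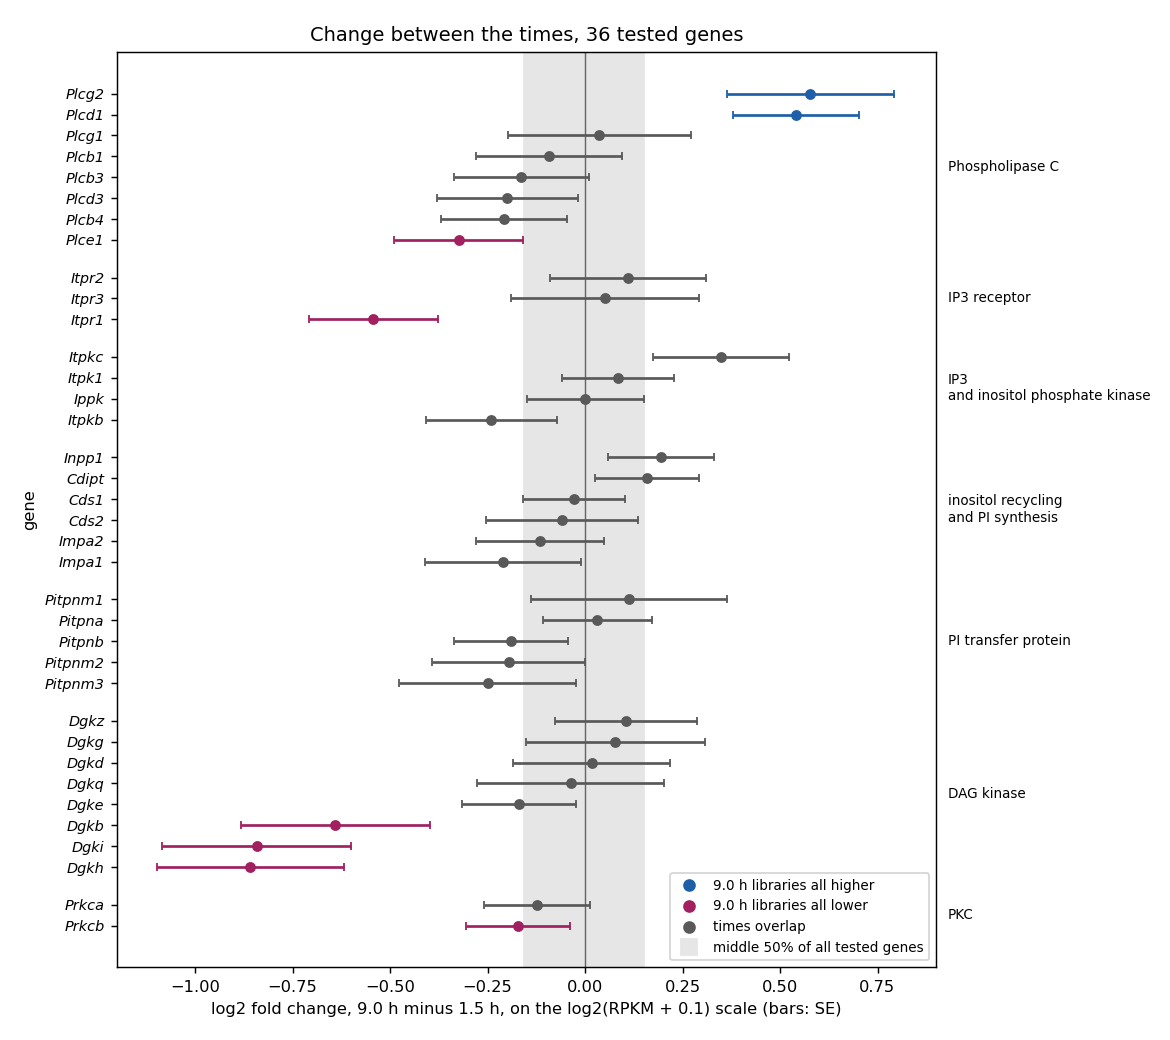
Log2 fold change (9.0 h minus 1.5 h, with SE) of the 36 tested genes by class; the grey band holds the middle 50% of all tested genes. Plcg2 and Plcd1 lie highest and Dgkb, Dgki and Dgkh lowest, and none of the 36 was called.

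Among phospholipase C genes, Plcd3, a delta isoform, had the highest level. It had 26.0, 17.1 and 19.1 RPKM at 1.5 h (replicates 1 to 3, the order used throughout) and 19.5, 15.0 and 19.1 RPKM at 9.0 h. These ranges overlapped, and 1.5 h replicate 1 alone stood above the rest. The log2 change was −0.20, and −0.025 when that library was left out. Plcd1, another calcium-sensitive delta isoform, had 14.3, 10.9 and 10.9 RPKM at 1.5 h and 18.5, 15.0 and 18.95 at 9.0 h. Every 9.0 h library was above every 1.5 h library, with a log2 fold change of 0.54 ± 0.16 SE that was not called (limma adjusted p = 0.249). Without 1.5 h replicate 1 it was 0.67 ± 0.16, which was called (limma adjusted p = 0.00128).

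Plcg2, the gamma isoform of immune cells, was a low gene with the largest change of its class. It had 1.06, 0.785 and 0.838 RPKM at 1.5 h and 1.52, 1.11 and 1.53 at 9.0 h, a log2 fold change of 0.58 ± 0.21 SE (limma adjusted p = 0.357, and 0.0391 without 1.5 h replicate 1). The times did not overlap, but the gap was small, since 1.5 h replicate 1 and 9.0 h replicate 2 lay side by side. The 8 listed genes of microglia and macrophages, which also use Plcg2, had 7 tested, of which 5 were above 0 and none was called, and their summed level was 122 to 154 RPKM at 1.5 h and 114 to 126 at 9.0 h. The most abundant of them was Lyz2, and no marker was listed at 0; their part in the Plcg2 values was not tested. Its sister Plcg1, the gamma isoform downstream of growth factor receptors, had 9.25, 4.90 and 6.13 RPKM and then 8.34, 6.49 and 5.56. Its log2 change of 0.04 had no stable sign, at 0.285 when 1.5 h replicate 1 was left out and −0.167 when 1.5 h replicate 2 was.

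Plce1, the epsilon isoform regulated by Ras family proteins, was lower in every 9.0 h library, with 2.79, 2.67 and 2.94 RPKM and then 2.51, 2.19 and 1.98. Its log2 change was −0.32 ± 0.17 SE (limma adjusted p = 0.514). The Gq-responsive beta isoforms showed smaller differences, and all 3 that were tested overlapped between the times. Plcb4 had 13.0, 13.3 and 13.7 RPKM at 1.5 h and 13.5, 12.2 and 9.26 at 9.0 h, and its log2 change of −0.21 was −0.05 without 9.0 h replicate 3. Plcb3 and Plcb1, at mean levels of 8.23 and 1.34 RPKM over the 6 libraries, had −0.16 and −0.09. These were −0.006 for Plcb3 when 1.5 h replicate 1 was left out and −0.008 for Plcb1 when 9.0 h replicate 2 was. Plcb2, known from blood cells and taste cells, had 0.046 to 0.207 RPKM and was not tested. Plcd4 was not tested either, at 0.754 to 1.23 RPKM. In all, 3 of the 8 tested phospholipase C genes had a positive change and 5 a negative one, with a median of −0.13 that ranged from −0.211 to −0.015 when each library was left out.

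Of the 3 IP3 receptors, the calcium release channels, Itpr1 had the highest level and the only change outside the range of its replicates. It had 7.39, 6.23 and 6.29 RPKM at 1.5 h and 5.38, 4.38 and 3.89 at 9.0 h. All 9.0 h libraries were lower, with a log2 change of −0.54 ± 0.17 SE (limma adjusted p = 0.255, and 0.0663 without 1.5 h replicate 1). Itpr3 and Itpr2 had means of 3.06 and 1.62 RPKM, overlapped between the times, and had log2 changes of 0.05 and 0.11, the latter −0.018 when 1.5 h replicate 3 was left out. For Itpr3, 1.5 h replicate 1 had 4.30 RPKM against 2.46 and 2.38 in the other 1.5 h libraries, and its change without that library was 0.32. The class median of 0.05 ranged from −0.094 to 0.264 when each library was left out. The difference between the Itpr1 and the Itpr2 or Itpr3 changes was not tested.

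**Figure D3:**
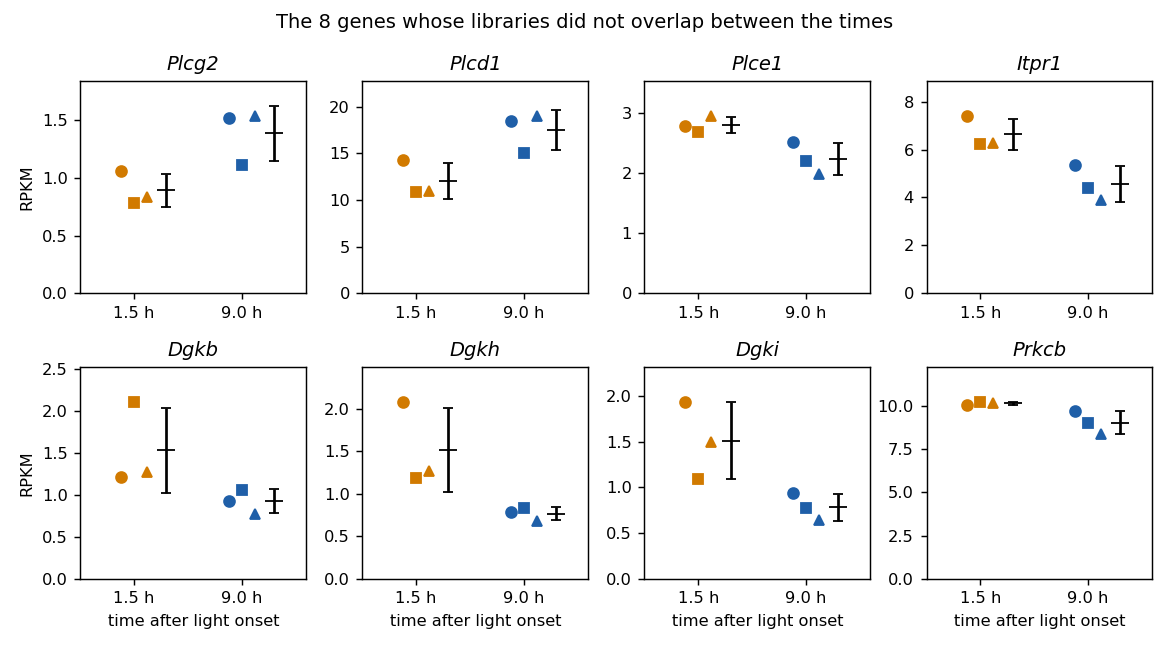
RPKM (linear axis from 0) of the 8 genes whose libraries did not overlap between the times, with 1 mark per library and, beside them, the mean and SD of the 3 libraries. Plcg2 and Plcd1 lie higher at 9.0 h and the other 6 lower; in Dgkb and Dgkh 1 library at 1.5 h lies well above the other 2, and in Dgki the 3 are about evenly spaced.

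The kinases that phosphorylate IP3 and other inositol phosphates overlapped between the times without exception among the 4 tested. Itpk1, which makes higher inositol phosphates, had the highest level, with 22.0, 20.2 and 25.6 RPKM at 1.5 h and 26.3, 22.3 and 23.0 at 9.0 h (log2 change 0.08). Itpkc, an IP3 3-kinase, had the largest change, 0.35 ± 0.17 SE (limma adjusted p = 0.503). It had 9.16, 6.02 and 6.57 RPKM at 1.5 h and 9.14, 8.47 and 9.77 at 9.0 h. Only 1.5 h replicate 1 reached the 9.0 h range, and without it the log2 change was 0.53 (limma adjusted p = 0.0229). Itpkc shares 24.1% of its annotated exon bases with BC024978 on the opposite strand, and the strand setting of the counting is not given, so reads of the 2 genes cannot be told apart there. Itpkb, another 3-kinase, had −0.24, and Ippk, which makes IP6, had 3.84 ± 0.27 and 3.85 ± 0.31 RPKM at the 2 times (SD, n = 3 each). Itpka, the 3-kinase known from neurons, had 0.304 to 1.02 RPKM and was not tested.

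All 6 genes of inositol recycling and phosphatidylinositol synthesis overlapped between the times. Cds1, 1 of the 2 enzymes that make CDP-diacylglycerol, had 50.6, 53.2 and 49.5 RPKM at 1.5 h and 54.5, 48.7 and 47.4 at 9.0 h (log2 change −0.03). Cdipt, which joins CDP-diacylglycerol to inositol, had 43.5, 49.7 and 46.7 RPKM and then 52.4, 48.4 and 55.5 (0.16). Cds2 had 47.4 RPKM in 1.5 h replicate 1 and 27.5 to 37.7 in the other 5 libraries, with a change of −0.06 that was 0.16 without that library. The inositol monophosphatase Impa1, a target of lithium, had the largest change of the class, −0.21 ± 0.20 SE, with 16.8, 30.6 and 20.97 RPKM at 1.5 h and 18.3, 20.3 and 18.7 at 9.0 h. That difference rested on 1.5 h replicate 2, and without it the change was 0.02. Impa2 and the polyphosphate phosphatase Inpp1 had −0.12 and 0.19. The class median of −0.04 was 0.06 without 1.5 h replicate 1 and 0.01 without 1.5 h replicate 2.

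Transfer proteins move phosphatidylinositol between membranes. Pitpnm1, a large membrane-bound member related to the fly photoreceptor gene rdgB, was the most abundant of all 39 genes at a mean of 97.6 RPKM. It had 139, 66.2 and 81.8 RPKM at 1.5 h and 116, 82.2 and 99.9 at 9.0 h. The 1.5 h libraries bracketed all 9.0 h libraries, with a log2 change of 0.11. The change became 0.42 when 1.5 h replicate 1 was left out, −0.12 when 1.5 h replicate 2 was left out, and −0.03 after quantile normalization. Pitpnm3, a related gene linked to cone dystrophy in people, had the largest change of the class at −0.25 ± 0.23 SE, with 51.9, 26.2 and 31.1 RPKM and then 32.8, 26.4 and 29.1. Here too 1.5 h replicate 1 stood alone, and without it the change was 0.04. Pitpnm2 had −0.20 with that library and 0.00 without it. The small soluble members had means of 42.4 RPKM for Pitpna and 29.9 for Pitpnb, with log2 changes of 0.03 and −0.19. All 5 overlapped between the times, and the class median of −0.19 was 0.00 without 1.5 h replicate 1.

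Diacylglycerol kinases, which turn diacylglycerol into phosphatidic acid, fell into abundant and scarce genes. Dgkd, Dgke and Dgkz had means of 18.3, 17.3 and 16.1 RPKM, Dgkq 3.13, and Dgkg, Dgkb, Dgki and Dgkh between 1.14 and 1.28. The 4 more abundant genes had log2 changes between −0.17 (Dgke) and 0.11 (Dgkz), and all overlapped between the times. When 1.5 h replicate 1 was left out these were 0.3 for Dgkz, 0.235 for Dgkq, 0.208 for Dgkd and −0.069 for Dgke. When 1.5 h replicate 2 was left out they were −0.043, −0.25, −0.188 and −0.198. Dgkd had 23.3, 13.4 and 18.2 RPKM at 1.5 h and 21.6, 16.7 and 16.5 at 9.0 h. Among the 4 scarce genes Dgkg overlapped, at 0.08, and the other 3 had the 3 most negative changes of all 36 genes. The class median of −0.10 ranged from −0.224 to −0.045 when each library was left out.

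Dgkh, the eta isoform, had 2.08, 1.19 and 1.28 RPKM at 1.5 h and 0.790, 0.835 and 0.679 at 9.0 h, a log2 change of −0.86 ± 0.24 SE (limma adjusted p = 0.223). Dgki, the iota isoform, had 1.93, 1.09 and 1.50 RPKM and then 0.934, 0.778 and 0.640, a change of −0.84 ± 0.24 SE (limma adjusted p = 0.235). In both genes every 9.0 h library was lower and 1.5 h replicate 1 was the highest library. Without it the changes were −0.62 and −0.66 (limma adjusted p = 0.0921 and 0.0675). Dgkb, a calcium-binding isoform, had 1.21, 2.11 and 1.27 RPKM at 1.5 h and 0.928, 1.06 and 0.778 at 9.0 h, a change of −0.64 ± 0.24 SE (limma adjusted p = 0.367). Its highest library was 1.5 h replicate 2, and without 1.5 h replicate 1 its change was −0.78 (limma adjusted p = 0.016).

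These 3 genes were close to the minimum level for testing. Dgkh and Dgki had at least 1 RPKM only at 1.5 h, so they entered the test through the time at which they were high. Dgkb and Plcg2 had 1 library of their lower time at 1 RPKM or more, and likewise would not have entered on that time alone. All 4 also passed when genes were chosen by a mean of at least 1 RPKM, where no listed gene was called either. By the depth and length estimates, Dgki rested on about 64 to 260 reads per library, Dgkb on 110 to 220 and Dgkh on 230 to 920. On a pseudocount of 1 RPKM, which damps low genes, the log2 changes were −0.49 for Dgkh, −0.48 for Dgki and −0.38 for Dgkb.

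To show the DNA in front of the genes with the largest changes, promoters were read from a RefSeq table (GRCm38.p6), which held 35 of the 39 genes. Dgkh has 3 start sites there, and 2 of these windows hold the E-box CACGTG, the letters that clock activators bind. The other scarce kinases, Dgki and Dgkb, and the higher gene Plcg2 are shown for comparison. Each line gives the 250 bases before the start site, 5′ to 3′ on the strand of the gene, with E-box letters in capitals.
Dgkh, chr14:78732730-78732979, minus strand: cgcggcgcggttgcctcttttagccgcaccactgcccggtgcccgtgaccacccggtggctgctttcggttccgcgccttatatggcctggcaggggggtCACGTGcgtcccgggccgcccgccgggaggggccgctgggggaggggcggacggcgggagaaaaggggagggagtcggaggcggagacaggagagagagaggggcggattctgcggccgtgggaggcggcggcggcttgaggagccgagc
Dgkh, chr14:78629291-78629540, minus strand: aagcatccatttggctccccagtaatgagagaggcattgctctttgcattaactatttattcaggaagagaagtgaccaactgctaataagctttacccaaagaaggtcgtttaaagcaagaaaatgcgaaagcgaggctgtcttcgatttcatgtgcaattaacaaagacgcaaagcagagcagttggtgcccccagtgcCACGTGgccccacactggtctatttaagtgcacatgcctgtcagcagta
Dgki, chr6:37299977-37300226, minus strand: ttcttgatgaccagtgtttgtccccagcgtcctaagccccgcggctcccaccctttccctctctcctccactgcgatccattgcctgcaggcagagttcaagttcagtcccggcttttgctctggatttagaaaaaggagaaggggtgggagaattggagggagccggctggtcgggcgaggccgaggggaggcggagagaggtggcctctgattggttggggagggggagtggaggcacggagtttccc
Dgkb, chr12:37879924-37880173, plus strand: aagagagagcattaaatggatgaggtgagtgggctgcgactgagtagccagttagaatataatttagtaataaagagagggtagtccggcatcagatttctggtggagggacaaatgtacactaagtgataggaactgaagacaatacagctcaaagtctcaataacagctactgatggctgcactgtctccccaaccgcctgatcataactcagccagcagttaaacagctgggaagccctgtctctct
Plcg2, chr8:117498025-117498274, plus strand: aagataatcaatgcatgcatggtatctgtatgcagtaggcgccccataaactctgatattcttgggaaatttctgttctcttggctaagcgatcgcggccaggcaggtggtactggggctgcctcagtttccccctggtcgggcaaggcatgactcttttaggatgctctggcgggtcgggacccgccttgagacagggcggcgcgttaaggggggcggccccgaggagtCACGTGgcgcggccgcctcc

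The E-box of Dgkh starts 150 bases before the first start site shown and 49 before the second, and that of Plcg2, a gene that was higher at 9.0 h, starts 20 bases before. The windows of Dgki and Dgkb do not hold these letters. Over the 300 bases of each window (250 before to 50 after the start), on both strands, CACGTG was found in 6 of 45 promoters of the listed genes (13.3%), those of Plcg2, Itpr3, Dgkg, Dgkh and Dgkq, against 7.15% of all 32851 promoters. The genes holding it had log2 changes of both signs, from −0.86 (Dgkh) to 0.58 (Plcg2). The D-box letters TTATGNAA were found in 1 of 45 (2.22%, Dgkz, against 3.38%), AGGTCA, letters bound by ROR and REV-ERB receptors, in 5 (11.1%, against 16.3%), and the cyclic AMP element TGACGTCA in 1 (2.22%, Cds1, against 1.79%). The GC box GGGCGG was found in 35 of 45 (77.8%, against 35.7%). For all these letters the background promoters were not limited to tested genes or matched for GC content. A match is a description of letters and not evidence of binding.

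The 2 protein kinase C genes on the list had similar levels. Prkca, a standard marker of rod bipolar cells, had 14.8, 14.7 and 15.4 RPKM at 1.5 h and 15.2, 13.8 and 12.3 at 9.0 h, a log2 change of −0.12 ± 0.14 SE, with overlap. Prkcb, the beta isoform, had 10.0, 10.2 and 10.2 RPKM and then 9.67, 9.02 and 8.35, a change of −0.17 ± 0.13 SE (limma adjusted p = 0.696). Its 9.0 h libraries were all lower, though by little, and the 1.5 h libraries had an SD of 0.0899 RPKM. In both genes 9.0 h replicate 3 was the lowest library.

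Changes of bipolar cell markers were mostly negative. All 10 were tested, 8 had negative changes, and none was called. Among them 3 were lower at 9.0 h with no overlap, against 8.41% of all tested genes. Their summed level was 233 to 249 RPKM at 1.5 h and 188 to 211 at 9.0 h, with no overlap. No bipolar marker was listed at 0. The 14 rod markers, 10 with negative changes and none called, overlapped in summed level, at 16400 to 18400 and 15600 to 17200 RPKM. Negative changes also prevailed in cone markers (8 of 9) and in pigment epithelium markers (6 of 7 tested). None of these was called, and both sums overlapped between the times. Amacrine markers went the other way, with 4 of 6 positive. The part of any of these cell types in the values of Itpr1, Plcb4, Prkca, Prkcb or the kinases was not tested.

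One library was often the highest. In 17 of the 36 tested genes (47.2%), 1.5 h replicate 1 was the highest of the 6 libraries, against 22.5% of all tested genes. It was the lowest in 4 of the 36, against 27% of all tested genes. These 17 included Plcd3, Plcb3, Plcg1, all 3 IP3 receptors, Cds2, Impa2, all 3 Pitpnm genes, and every diacylglycerol kinase except Dgkb and Dgkg. Pitpnm3 in this library was 0.84 above the mean of the other 5 on the log2 scale, Dgkq 0.67 and Pitpnm1 0.67, and Dgkh and Dgki 1.09 and 0.95. Others went the opposite way, such as Dgkg (−0.48), Impa1 (−0.35) and Pitpna (−0.22). The other 5 libraries include those at 9.0 h, so this deviation also holds part of the difference between the times. Across the 36 genes this deviation had a Pearson correlation of 0.30 and a Spearman correlation of 0.33 with the GC content of the transcript, and 0.32 and 0.36 across 12268 tested genes. These correlations are across genes that share the same libraries and are descriptions only.

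**Figure D4:**
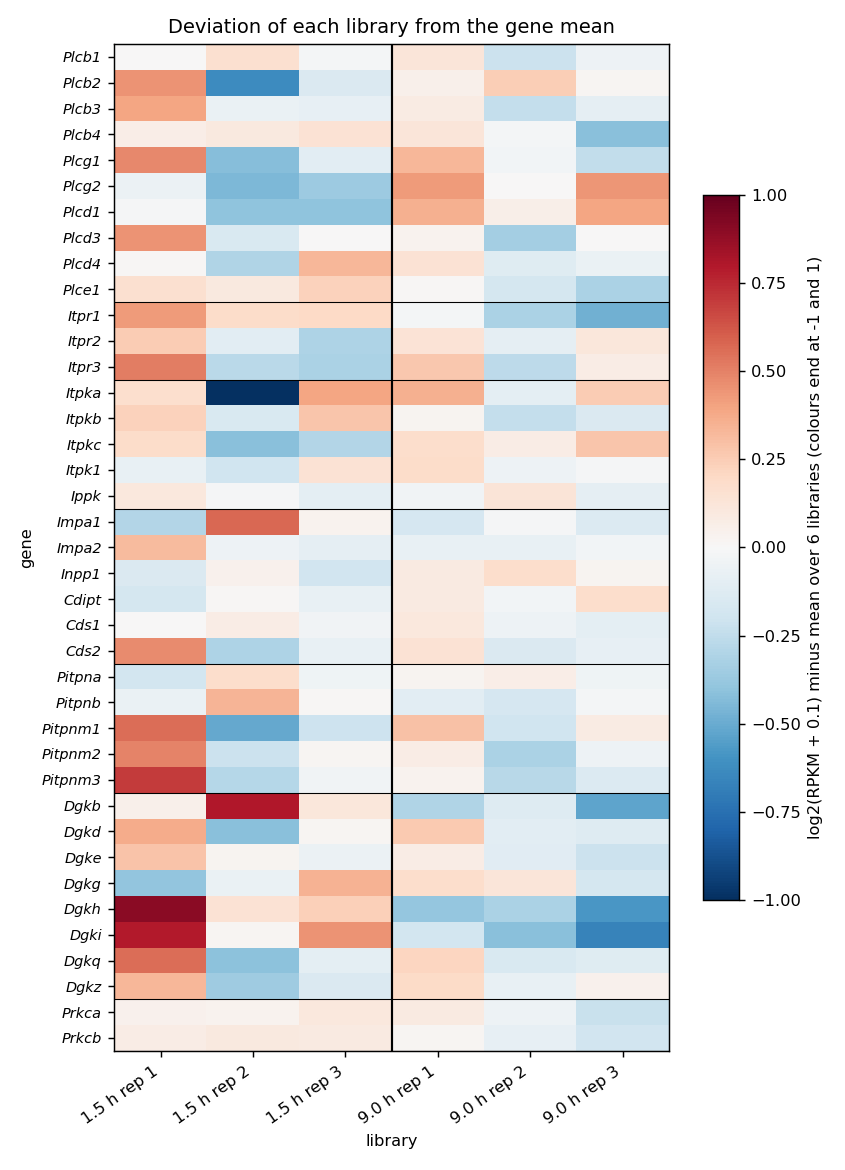
Deviation of each library from the mean of its gene over the 6 libraries, on the log2(RPKM + 0.1) scale, for all 39 genes in class order; red is above and blue below the mean, and colours end at −1 and 1. The column of 1.5 h replicate 1 is mostly red in the Pitpnm, IP3 receptor and diacylglycerol kinase genes, and the lower genes Itpr1, Dgkb, Dgkh and Dgki are blue in the 9.0 h columns.

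The listed genes also had long transcripts. With lengths from GENCODE M21 (the longest protein-coding transcript of a gene), 26 of 36 were over 4108 nt, 9 were from 2384 to 4108 nt, and Cdipt was shorter. These lengths divide tested genes into 3 groups of about equal size. Across all tested genes with a length, the median log2 change was 0.075 in the shortest group, 0.019 in the middle group and −0.105 in the longest. Genes lower at 9.0 h with no overlap made up 15.8% of the longest group, and genes higher with no overlap 3.6%. Of the 26 listed genes in that group, 5 were lower with no overlap (19.2%), namely Plce1, Itpr1, Dgkb, Dgkh and Dgki, and Prkcb was in the middle group. The share in the longest group was near that of all genes in it, a group with no upper limit of length. In the middle group 1 of 9 was lower with no overlap, against 5.55% of all genes there. Dgkb, Dgkh and Dgki would not have entered the test on their lower time alone. The part of length in these shares was not tested. Over the 36 genes the log2 change had a Pearson correlation of −0.45 and a Spearman correlation of −0.40 with log2 length, against −0.28 and −0.33 over 12268 genes. With the GC content of the transcript they were 0.4 and 0.4 over the 36 genes, against 0.28 and 0.37 over 12268 genes. All are again descriptions across genes, and the parts of length and GC content were not separated.

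**Figure D5:**
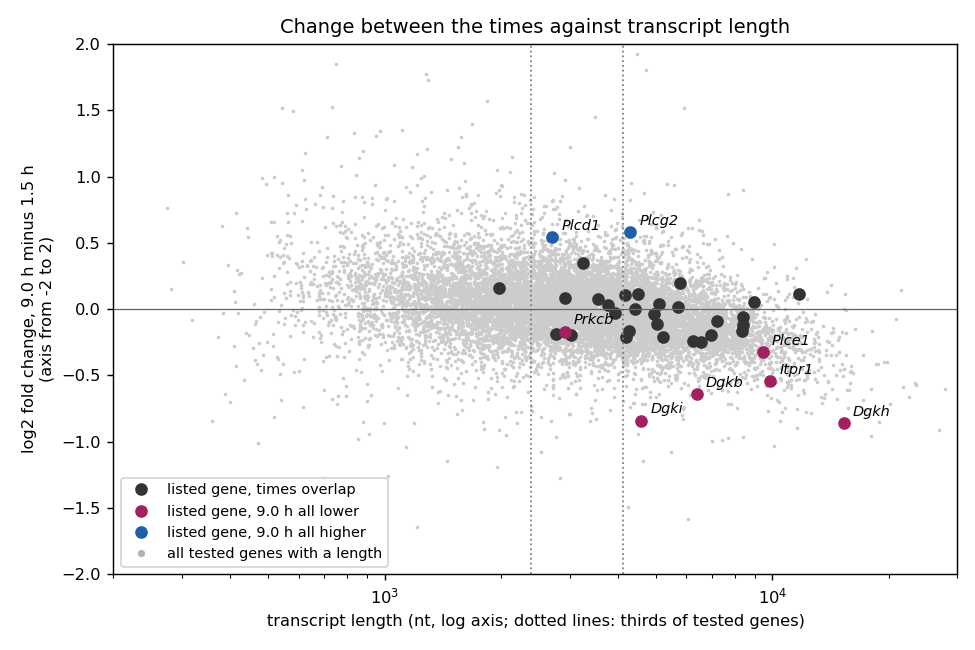
Log2 fold change (9.0 h minus 1.5 h) against transcript length in nt (log axis) for tested genes with a length, with the 36 listed genes as large points; dotted lines mark 2384 and 4108 nt. The grey cloud slopes down to the right, and the lower genes Plce1, Itpr1, Dgkb, Dgki and Dgkh lie to the right of the line at 4108 nt.

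Further genes of the pathway were taken from a list of 144 symbols found in the files, of which 122 were tested. Of these, Marcksl1 was called higher and none lower, 56 had positive and 66 negative changes, and the median was −0.01. Marcksl1, a substrate that protein kinase C releases from the membrane, had 13.0, 12.8 and 18.0 RPKM at 1.5 h and 31.2, 33.0 and 29.1 at 9.0 h. Its log2 change was 1.10 ± 0.16 SE (limma adjusted p = 0.0238). The change kept its size, 1.01 to 1.26, whichever library was left out, but the call was lost without 9.0 h replicate 1, 2 or 3 (limma adjusted p = 0.181, 0.126 and 0.27). It was also lost after quantile normalization (0.0796), after median ratio scaling (0.0542) and without the trend and robust settings (0.055). Its relative Marcks had −0.03, and the most abundant gene of that role, Gnb2l1, the anchor RACK1, had −0.21, and no other gene of the 11 tested in that role was called.

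Upstream, Gnaq, the G protein subunit that activates beta isoforms, had 10.4, 12.5 and 11.6 RPKM at 1.5 h and 8.45, 7.48 and 7.85 at 9.0 h. All 9.0 h libraries were lower, with a change of −0.53 ± 0.14 SE (limma adjusted p = 0.19, and 0.00652 without 1.5 h replicate 1). Its relative Gna11, with a higher level of 26.6 to 34.9 RPKM, had 0.02. Of 28 Gq-coupled receptors 19 were tested and none was called, with a median of −0.01. Ednrb, the endothelin B receptor, had the highest level, 12.9 to 24.7 RPKM, and a change of −0.15, and the muscarinic receptor Chrm3 had the largest change, −0.34. Of the 5 RGS genes, which shorten Gq signals, Rgs5 was the most abundant at −0.22 and Rgs3 had the largest change at 0.27.

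Among other phospholipase C genes Plch2, an eta isoform, was the most abundant, at 31.5 to 69.9 RPKM with a change of −0.05, and its relative Plch1 had the largest change at −0.36. Of 9 tested further protein kinase C and D genes none was called. Prkci, an atypical isoform, was the most abundant at −0.10, and Prkcq, an isoform known from T cells, had −0.31. Of other diacylglycerol effectors 10 of 12 tested had negative changes. Unc13a, a vesicle priming factor with a diacylglycerol-binding domain, had the largest, −0.69 ± 0.25 SE, with 10.5, 4.68 and 7.00 RPKM and then 4.98, 3.79 and 4.23. Its ranges overlapped, and Chn1, the most abundant of the role, had −0.19. The monoglyceride lipase Mgll, the most abundant of the other kinases and lipases of diacylglycerol, also had their largest change, −0.27.

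Minpp1, a phosphatase of higher inositol phosphates, had 12.5, 12.7 and 12.5 RPKM at 1.5 h and 17.6, 17.1 and 16.96 at 9.0 h, a change of 0.45 ± 0.12 SE with no overlap (limma adjusted p = 0.21). The most abundant gene of its role, Ip6k1, had 0.20. The inositol transporter Slc5a3 had 1.48, 2.14 and 1.85 RPKM and then 1.204, 1.29 and 1.02, a change of −0.59 ± 0.20 SE (limma adjusted p = 0.315), and Slc2a13, the more abundant transporter, had −0.18. Esyt1, a lipid transfer protein of membrane contact sites, had 0.30, and Vapa, the most abundant of that role, had 0.11. Of 13 tested genes of calcium release and refill 10 had positive changes, the largest and most abundant being the muscle calcium pump Atp2a1, at 92.5, 172 and 164 RPKM and then 190, 190 and 184 (0.45). Of the 10 skeletal muscle markers 7 had positive changes, with a median of 0.33, and none was called. Among these markers 4 were higher at 9.0 h with no overlap, against 9.78% of all tested genes. Their sum was lowest in the library in which Atp2a1 was lowest, 1.5 h replicate 1. Their part in the Atp2a1 values was not tested. Of 16 calmodulin genes and targets 10 were positive, with the largest change, 0.35, in Calm3. Besides Marcksl1, 6 of these further genes were called without 1.5 h replicate 1, all lower: Gnaq, Ednrb, Ppp1r14a, Rasgrp3, Unc13c and Slc5a3. With Marcksl1 these were 7 of 122, against 9.23% of all tested genes in that fit.

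Some levels are uncertain because of shared sequence. In GENCODE M21, 21 of the 39 genes share exon bases with another gene, 7 of them over 5% of their own exon bases. The largest overlaps were with genes on the opposite strand: 29.8% for Plcd4 with Zfp142, 29.1% for Dgkq with Tmem175, 24.1% for Itpkc, 23.6% for Impa2 with B430212C06Rik and 22.9% for Pitpnb with Gm43118. At 95% identity over at least 200 nt, 8 of the 39 matched another gene, and in all 8 that gene was one that overlaps it. None of the 8 genes whose libraries did not overlap between the times was among them, although Dgkh shares 4.82% of its exon bases with Gm48998 and Itpr1 under 1% with each of 2 others.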

How the data were processed

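RNA sequencing libraries were made from poly(A) RNA of pooled whole-eye total RNA with random primers, per the labels' protocols. The authors deposited 1 RPKM value per gene symbol and library. The unit was taken from the values, since the file headers name only the sample. GSNAP, HTSeq and mm9 are named in the submitters' processing notes; versions, annotation and strand setting: not given in the sources used here. Separate animals per pool are not stated; the p-values therefore reflect variation among these libraries, possibly technical only. Depth (12680000 to 31720000 reads) was estimated from the step between low RPKM values of genes with 1 GENCODE M21 transcript. In each library 69.3% to 72.7% of these values lay within 0.1 read of a whole number. A 2 kb transcript with 0 reads could hold up to 0.118 RPKM (3 reads, counting error only).

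Values were tested with limma 3.58.1 in R 4.3.3 (eBayes, trend and robust, two-sided) on log2(RPKM + 0.1), for the 13490 genes that reached 1 RPKM in 3 libraries, with Benjamini-Hochberg adjustment over all of them. Fold changes on this scale understate changes of low genes. A single-gene permutation of 3 against 3 libraries cannot go below 0.1. The fit was tested on simulated data. Members, lists, motifs and alternatives were chosen with earlier results of these data known. All 39 genes may be named; library values are given for called or non-overlapping ones and for the highest and most changed of each class. Of other pathway genes the called, the most abundant and the most changed per role are named, except an item that is not reported here, and Marcks, Gna11, Minpp1 and genes called without a library were chosen after their values were seen. Alternatives were 2 pseudocounts, 3 filters (1 added after seeing the data), 2 scalings, the replicate block, plain limma and leaving out each library. Lengths, GC content, exon overlaps, near-identical matches (minimap2 2.31) and promoters came from GRCm38, not the build of the files.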

Additional observations from a re-analysis of the deposited data

How the results depend on the processing

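No listed gene was called under any alternative except without 1.5 h replicate 1, where 3 were called higher and 1 lower (0 to 3 and 0 to 1 over the fits that leave out 1 library). At an unadjusted limma p of 0.05, 6 of 36 passed with all libraries, against 1491 of 13490 tested genes. With the replicate block 7 passed, against 2026 of 13490. Without 1.5 h replicate 1 it was 9, against 3134 of 13490. The count was 5 without 1.5 h replicate 2, against 1617 of 13490, and 5 without 1.5 h replicate 3, against 1259 of 13490. Leaving out 9.0 h replicate 1 gave 4, against 1044 of 13490. For 9.0 h replicates 2 and 3 the counts were 6 and 4, against 943 and 764 of 13490. With a minimum of 5 RPKM 2 of 23 passed, against 1002 of 9072 tested genes. Over all tested genes, 20 were called higher and 10 lower; these became 10 and 6 after quantile normalization, 9 and 6 after median ratio scaling, and 87 and 54 with the replicate block. There were 11 higher without the trend and robust settings, 6 lower at a pseudocount of 0.01 and 3 lower with a minimum of 5 RPKM. Leaving out 1 library gave 0 to 669 higher and 2 to 576 lower. Of the other pathway genes, the 1 called higher became 0 after quantile normalization, after median ratio scaling and without the trend and robust settings, and leaving out 1 library gave 0 to 1 higher and 0 to 6 lower. Without a library, its time kept 2.

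With a minimum of 5 RPKM the median of the IP3 receptors was −0.54, since only Itpr1 was then tested, and that of the inositol phosphate kinases 0.22, over fewer genes. Leaving out 1 library moved the medians of inositol recycling genes between −0.098 and 0.062 and of transfer proteins between −0.233 and 0.003, of IP3 receptors between −0.094 and 0.264, of phospholipase C genes between −0.211 and −0.015, and of diacylglycerol kinases between −0.224 and −0.045; the cause was not tested. For the inositol phosphate kinases that range was 0.001 to 0.077, and for protein kinase C −0.21 to −0.081. In 34 refits of single named genes an uncalled change changed sign.

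The labels give replicate numbers but no pairing of libraries by them. Deviations of same-numbered libraries correlated at 0.35, 0.48 and −0.21 across genes. For 1.5 h replicates 1 and 2 the 9.0 h library of the same number correlated best. For 1.5 h replicate 3 it was 9.0 h replicate 2. These values do not settle whether the numbers pair libraries, and the main fit used no block. The replicate block raised calls over all genes to 141 and called no listed gene. Depth limits the low genes most: Plcb2, at 3 to 31 estimated reads, was not tested.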
